A study of Mus musculus with 12 samples.

Results

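The 33 genes described here make cholesterol, move it through the cell and out of it, or control its supply. They were chosen by symbol as a pathway, with earlier results of these libraries known, and all 33 were found among the 35666 genes of the deposited gene table, matched by Ensembl ID through GENCODE release M21. The list holds 19 synthesis enzymes, 8 regulators and 6 genes of intracellular transport, storage and efflux. RNA came from male germ cells isolated from testes of newborn (P0) Mvh-Venus transgenic mice, which carry a fluorescent reporter driven by the germ cell gene Mvh. At this age the germ cells are gonocytes, the precursors of spermatogonial stem cells. The heterozygous group (het, Morc1 +/-) and the knockout group (KO, Morc1 -/-) had 3 libraries each. All 6 libraries carry the reporter, and the het mice also carry 1 mutant Morc1 allele, so neither group is wild type. MORC1 is needed in male germ cells to silence transposable elements (TEs), and belongs to a family of ATPases. The labels do not say whether a library is 1 animal or a pool, so the spread between libraries may be in part technical. The samples labelled P3 were not analysed here.

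Cells build cholesterol from acetyl-CoA by way of mevalonate, farnesyl diphosphate and squalene. The transcription factors SREBP1 and SREBP2, encoded by Srebf1 and Srebf2, turn the pathway on when sterols are scarce: SCAP carries them from the endoplasmic reticulum to the Golgi, where they are cut free, and the INSIG proteins hold SCAP back when sterols are plentiful. The liver X receptors, encoded by Nr1h2 and Nr1h3, are activated by oxysterols and turn on efflux genes such as Abca1 and Abcg1. In the testis, cholesterol is both a membrane component and the precursor of the steroids that Leydig cells make.

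The libraries held 28363683 to 32816861 reads counted in genes. Values are listed by replicate number, 1 to 3, throughout. Morc1 itself stood at 7248, 7485 and 4126 normalized counts in het, against 1360, 1343 and 1794 in KO (exact two-sided permutation p = 0.1, the smallest that 3 against 3 allows). The 9 germ cell markers, among them Ddx4, Dazl and Piwil2, were present in every library, with a summed level of 127602 to 200516 normalized counts. Normalized counts are the authors' read counts divided by 1 size factor per library. Differences between genotypes are given as log2 fold changes of KO minus het on the log2(normalized count + 1) scale, from limma, a linear model fitted to all 26005 genes with a mean of at least 10 normalized counts. All 33 members passed that filter, and the least abundant had at least 26 reads in every library. The members were chosen with this contrast known, so their differences are a description.

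All 19 synthesis enzymes had a lower mean log2 level in KO than in het gonocytes, and 7 of them (Hmgcs1, Idi1, Fdps, Sqle, Lss, Msmo1 and Dhcr7) were lower in every KO library than in any het library. Such a separation in that direction was seen in 5.57% of all genes tested. Among the 15525 genes at least as abundant as the least abundant member the share was 5.62%. Of all genes tested, 51.6% had a negative log2 fold change, and of those 15525 genes 52.0%. The 19 enzymes had a median of -0.64, against -0.02 over all genes tested. The count of negative values was 18 without het replicate 3, without KO replicate 1 and in edgeR and DESeq2, where Pmvk was positive, and 18 without KO replicate 2, where Nsdhl was at or above 0. Limma called 2 of the 19 lower at an adjusted p under 0.05, Hmgcs1 and Fdps, where 0.0423% of all genes tested, and 0.0709% of those at least as abundant as the least abundant member, were called lower. No enzyme was called higher by limma, edgeR or DESeq2, and 0.431%, 0.465% and 1.54% of all genes were. At an unadjusted limma p under 0.05, 10 enzymes were lower and 0 higher, where 2.44% of all genes tested were lower and 4.42% higher. Since the genes were chosen with this contrast known, nothing further is read from these counts. Without trend, limma called neither of the 2. Neither was called when any library other than het replicate 3 was left out, and without het replicate 3 Fdps was called and Hmgcs1 was not. edgeR called the same 2 enzymes, against 0.0308% of all genes called lower. DESeq2 called 6 enzymes lower, those of the 7 above other than Idi1, against 0.25% of all genes.

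**Figure D1:**
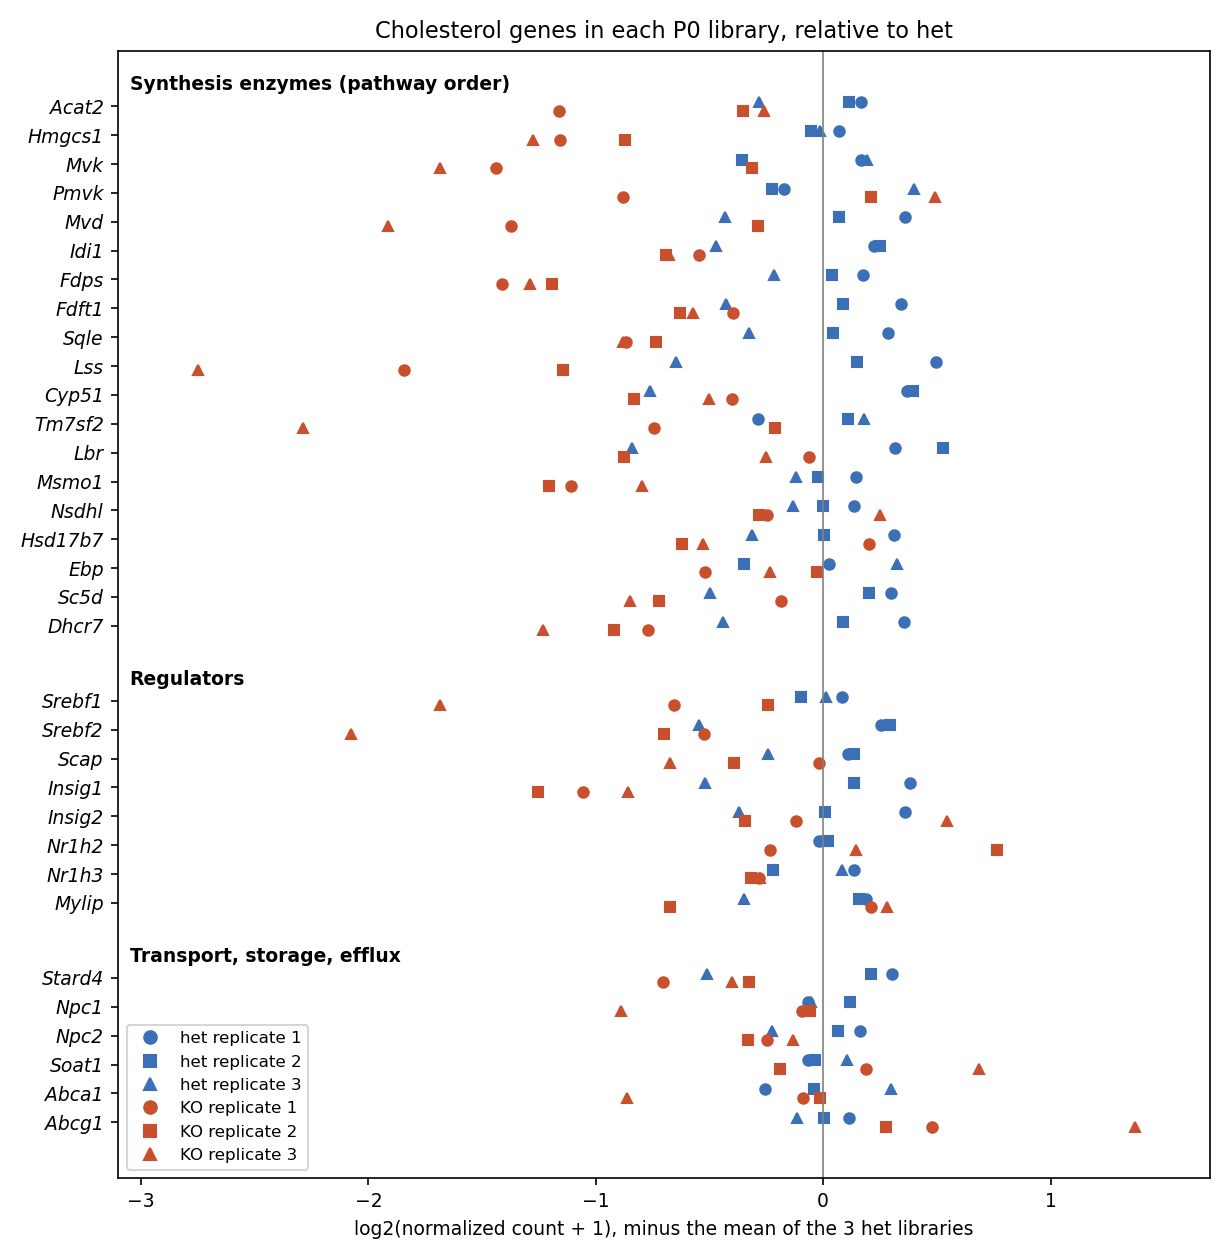
Each point is 1 library: log2(normalized count + 1) minus the mean of the 3 het libraries, for 19 synthesis enzymes in pathway order, 8 regulators and 6 transport, storage and efflux genes; blue marks het and orange marks KO. Most KO points of the synthesis enzymes lie left of 0, those of Lss farthest, while the KO points of Abcg1 all lie right of the het points.

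Promoter sequences of the members were read from RefSeq (GRCm38.p6), as windows of 300 bases that run from 250 bases before to 50 bases after an annotated start. They were found for 27 of the 33 members, in 36 windows. No entry was matched for Fdps, Fdft1, Sqle, Stard4, Npc1 or Abcg1. Motifs were searched on both strands by exact letters. The sterol regulatory element that SREBP proteins are known to bind was searched as TCACNCCAC, and the box bound by NF-Y, a known partner of SREBP, as CCAAT. The windows of 4 members are shown because they hold at least 1 of these motifs and belong to genes with some of the largest differences between genotypes (chosen after their values were seen), with matches to TCACNCCAC and CCAAT in capitals (ATTGG is CCAAT on the other strand). Hmgcs1 is chr13:119690101-119690400 on the plus strand, Lss chr10:76531355-76531654 on the plus strand, Msmo1 chr8:64733529-64733828 on the minus strand and Insig1 chr5:28071162-28071461 on the plus strand, each written 5′ to 3′ along the gene.
Hmgcs1: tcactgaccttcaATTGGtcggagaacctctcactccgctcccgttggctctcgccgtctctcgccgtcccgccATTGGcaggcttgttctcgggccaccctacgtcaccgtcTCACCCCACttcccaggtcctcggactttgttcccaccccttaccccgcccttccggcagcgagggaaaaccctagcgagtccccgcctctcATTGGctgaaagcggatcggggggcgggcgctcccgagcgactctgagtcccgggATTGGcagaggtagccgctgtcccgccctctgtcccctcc
Lss: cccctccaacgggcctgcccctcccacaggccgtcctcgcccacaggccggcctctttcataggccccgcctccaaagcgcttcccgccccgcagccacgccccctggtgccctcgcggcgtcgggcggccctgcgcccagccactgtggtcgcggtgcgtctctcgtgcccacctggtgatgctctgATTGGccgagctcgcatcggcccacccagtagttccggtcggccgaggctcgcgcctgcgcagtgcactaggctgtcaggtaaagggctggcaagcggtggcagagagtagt
Msmo1: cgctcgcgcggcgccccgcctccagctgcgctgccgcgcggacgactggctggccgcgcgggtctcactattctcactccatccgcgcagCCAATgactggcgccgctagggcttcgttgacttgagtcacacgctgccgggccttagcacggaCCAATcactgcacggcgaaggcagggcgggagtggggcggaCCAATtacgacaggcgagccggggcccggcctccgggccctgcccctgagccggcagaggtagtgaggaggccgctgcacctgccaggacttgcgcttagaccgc
Insig1: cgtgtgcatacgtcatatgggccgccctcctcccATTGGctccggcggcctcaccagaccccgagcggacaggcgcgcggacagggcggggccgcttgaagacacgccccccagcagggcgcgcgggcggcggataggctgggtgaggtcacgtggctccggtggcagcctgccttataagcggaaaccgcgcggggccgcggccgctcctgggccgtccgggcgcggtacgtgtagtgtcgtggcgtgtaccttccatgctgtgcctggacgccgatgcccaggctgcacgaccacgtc

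Among members with a window, only Hmgcs1 held TCACNCCAC, at bases 114 to 122, clear of its CCAAT matches. That is 3.70% of 27 members, against 1.44% of all 27025 genes with a window. CCAAT was found in 22 of 27 members (81.5%) and in 15 of the 16 synthesis enzymes with a window, against 41.1% of all genes and 42.9% of the 11515 tested genes at least as abundant as the least abundant member. Some genes have several windows, and per window the shares were 63.9% of 36 and 37.4% of 32851. Msmo1 had 3 CCAAT matches, Hmgcs1 had 4, and Lss and Insig1 had 1 each. The box GGGCGG, bound by SP1, was found in 24 of 27 members (88.9%), against 38.2% of all genes and 65.97% of the tested genes at least as abundant. CCAAT was in 7 of the 8 members with a window that were lower in every KO library (87.5%) and in 15 of the 19 whose libraries overlapped (78.9%). A stricter sterol element, with an A before TCACNCCAC and C at its open base, was found in no member window and in 0.0999% of all genes. The exact letters AGGTCA repeated with 4 open bases between, 1 form of the liver X receptor element, were likewise in no member window and in 0.0148% of all genes. A match is a run of letters and not a measured binding site, and its absence refers to these exact letters in these 300 bases alone. Elements that differ from the searched letters were not looked for, so no window is shown to lack a sterol or liver X receptor element.

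The first steps, from acetyl-CoA to farnesyl diphosphate and squalene, hold 8 of the listed enzymes. Hmgcs1 (ENSMUSG00000093930, plus strand of chromosome 13, 119690379 to 119708260, GRCm38) encodes the cytosolic HMG-CoA synthase. Its promoter window, shown above, is the only member window with an exact match to TCACNCCAC. The het libraries had 16645, 15291 and 15690 normalized counts, and the KO libraries 7120, 8668 and 6556. The het libraries lay close together and all KO libraries were far below them, with a KO mean at 46.9% of the het mean (log2 fold change -1.10, SE 0.19).

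Fdps (ENSMUSG00000059743, minus strand of chromosome 3, 89093588 to 89101959), which makes farnesyl diphosphate, had 2669, 2429 and 2033 normalized counts in het and 887, 1034 and 967 in KO. Both groups were tight, and the KO mean was 40.5% of the het mean (log2 fold change -1.30, SE 0.21). Idi1, the isopentenyl diphosphate isomerase, had 2328, 2375 and 1438 in het and 1365, 1237 and 1247 in KO. Its KO libraries were close together, and het replicate 3 lay nearer to them than to the other het libraries.

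The mevalonate-phosphate steps varied more between KO libraries. Mvd, the decarboxylase that makes isopentenyl diphosphate, had 2881, 2358 and 1665 normalized counts in het and 866, 1840 and 596 in KO. KO replicate 2 lay within the het range and the other KO libraries were far below it (log2 fold change -1.19, SE 0.39). Mevalonate kinase, Mvk, also had KO replicate 2 within the het range, with 1575, 1095 and 1608 in het and 517, 1132 and 436 in KO. Phosphomevalonate kinase, Pmvk, was the enzyme with the smallest difference (log2 fold change -0.06, SE 0.36). Its linear KO mean was 101% of the het mean, and its log2 fold change was 0.35 without KO replicate 1.

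Acat2, the cytosolic thiolase that joins the first acetyl-CoA units, had a log2 fold change of -0.59 (SE 0.28) with libraries that overlapped, and of -0.31 without KO replicate 1. Fdft1, the squalene synthase that commits the pathway to sterols, had 17643, 14793 and 10361 normalized counts in het and 10591, 8995 and 9379 in KO. Its KO libraries lay together at the level of het replicate 3, below the other het libraries (log2 fold change -0.53, SE 0.23).

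Median log2 fold changes were -0.59 over the 11 enzymes from squalene onward and -0.87 over the 8 up to squalene. Lss (ENSMUSG00000033105, plus strand of chromosome 10, 76531588 to 76557138) encodes lanosterol synthase, which folds the squalene chain into the first sterol. It had 8139, 6395 and 3676 normalized counts in het and 1607, 2609 and 855 in KO. This was the member with the largest difference: the groups did not overlap, and the KO mean was 27.8% of the het mean (log2 fold change -1.91, SE 0.41). Leaving out single libraries moved it between -2.30 and -1.49.

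Sqle, the squalene epoxidase that acts just before Lss, had 5843, 4947 and 3823 normalized counts in het and 2632, 2879 and 2606 in KO, with a KO mean 55.5% of the het mean (log2 fold change -0.83, SE 0.22). Msmo1, a methylsterol oxidase, had 6853, 6087 and 5691 in het and 2868, 2688 and 3560 in KO (log2 fold change -1.04, SE 0.20). Dhcr7, which makes cholesterol in one of the last steps, had 8771, 7276 and 5044 in het and 4013, 3626 and 2919 in KO (log2 fold change -0.97, SE 0.25). For each of Sqle, Msmo1 and Dhcr7 the 2 groups did not overlap.

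The other enzymes after squalene overlapped between genotypes. The sterol demethylase Cyp51 (log2 fold change -0.58, SE 0.31), Sc5d (-0.59, SE 0.27) and the lamin B receptor Lbr, which also has sterol reductase activity (-0.40, SE 0.36), each had het replicate 3 within the KO range. Without that library the values were -0.96 for Cyp51, -0.84 for Sc5d and -0.82 for Lbr. Nsdhl, Hsd17b7 and Ebp, which act in the middle of the sterol steps, differed least, at log2 fold changes of -0.09, -0.32 and -0.26. Ebp had 207, 159 and 255 normalized counts in het and 142, 199 and 172 in KO, and the 2 groups were mixed. Tm7sf2, a second sterol reductase, had 105, 138 and 145 in het and 76.2, 111 and 25.5 in KO. Its difference (-1.08, SE 0.52) rested on KO replicate 3, without which it was -0.48.

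Several of these genes share reads or positions with others. Tm7sf2 overlaps the more abundant Vps51 on the same strand. Fdft1, Cyp51, Lbr, Srebf1 and Npc1 each overlap an expressed protein-coding gene on the opposite strand (Ctsb, Akap9, Dnah14, Rai1 and Rmc1), and the strand setting of the counting is not given in the sources used here. The longest Acat2 transcript was 97.7% identical to one of Acat3 over 65.6% of its length, and those of Fdft1 and Idi1 matched processed pseudogenes over 33.8% and 22.6% of their length at identities of 97.4% and 100%. How the authors' counting split such reads is unknown.

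Of the 8 regulators, 6 had a negative and 2 a positive log2 fold change, with a median of -0.33. Limma called 0 of the 8 in either direction, with 3 (Srebf1, Srebf2 and Insig1) at an unadjusted p under 0.05, all lower, where 2.44% of all genes tested were. edgeR called 0 and DESeq2 called Insig1. Insig1 (ENSMUSG00000045294, plus strand of chromosome 5, 28071363 to 28078662) is itself a target of the SREBP proteins and encodes the protein that retains SCAP. It had 23150, 19525 and 12411 normalized counts in het, against 8535, 7446 and 9791 in KO. The groups did not overlap, het replicate 3 was the lowest het library, and the KO mean was 46.8% of the het mean (log2 fold change -1.06, SE 0.25).

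Its paralog Insig2 had 1316, 1032 and 794 normalized counts in het and 945, 807 and 1495 in KO, and the groups overlapped (log2 fold change 0.03, SE 0.30). Per kb of exon, Insig1 was 19.8, 21.3 and 17.6 times the level of Insig2 in het, against 10.1, 10.4 and 7.35 times in KO. This ratio within a library does not depend on its size factor, and its het and KO values did not overlap. Its exact two-sided permutation p was 0.1, the smallest that 3 against 3 allows. Among the gene-pair ratios computed, it was the only one whose groups separated, and the share of all gene pairs that do so is not given.

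Srebf2 (ENSMUSG00000022463, plus strand of chromosome 15, 82147181 to 82205379) had 21840, 22474 and 12556 normalized counts in het and 12757, 11281 and 4350 in KO. Het replicate 3 lay with KO replicates 1 and 2, and KO replicate 3 was lowest (log2 fold change -1.10, SE 0.39). Without KO replicate 3 the value was -0.61. Srebf1 (ENSMUSG00000020538, minus strand of chromosome 11, 60199089 to 60222581), whose product acts mainly on fatty acid genes, had 2588, 2281 and 2467 in het and 1550, 2065 and 758 in KO. All KO libraries were lower than the het libraries, by a small margin in KO replicate 2 (log2 fold change -0.86, SE 0.33). Without KO replicate 3 this was -0.45. Per kb of exon, Srebf2 stood at 6.11 ± 1.92 times Srebf1 in het and 5.08 ± 1.19 times in KO (SD, n = 3), and these ratios overlapped.

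Scap had 6376, 6480 and 4984 normalized counts in het and 5831, 4503 and 3701 in KO, with overlapping groups (log2 fold change -0.36, SE 0.23, and -0.20 without KO replicate 3). Of the liver X receptors, Nr1h3 had 477, 373 and 460 in het, against 357, 348 and 358 in KO. The KO libraries were all lower and nearly equal, but the difference was small (log2 fold change -0.29, SE 0.24). Nr1h2 had its highest value in KO replicate 2 and a log2 fold change of 0.22 (SE 0.26). Mylip, a ubiquitin ligase and liver X receptor target that limits lipoprotein uptake, had a value of -0.06 (SE 0.30).

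The 6 genes of transport, storage and efflux were split into 4 with a negative and 2 with a positive log2 fold change (median -0.28). Limma called 0 of them, with 1 (Abcg1) at an unadjusted p under 0.05, where 4.42% of all genes had that and were higher, and neither edgeR nor DESeq2 called any. Without KO replicate 3 the median was -0.063. Abcg1 (ENSMUSG00000024030, plus strand of chromosome 17, 31057675 to 31117988), an efflux transporter, was the one member whose KO libraries all exceeded the highest het library, a separation that 7.17% of all genes showed. It had 1860, 1723 and 1591 normalized counts in het and 2401, 2085 and 4447 in KO. KO replicate 3 was about double the other KO libraries, and without it the log2 fold change was 0.38 instead of 0.71 (SE 0.29).

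The efflux transporter Abca1 did not share that pattern: it had a log2 fold change of -0.32 (SE 0.27), and KO replicate 3 was its lowest library, without which the value was -0.050. Soat1, which esterifies cholesterol for storage, had a value of 0.23 (SE 0.25) and was highest in KO replicate 3, without which the value was -0.00051. Stard4, a soluble sterol carrier, had 1831, 1716 and 1042 normalized counts in het and 911, 1183 and 1125 in KO, where het replicate 3 lay among the KO libraries (log2 fold change -0.48, SE 0.27, and -0.73 without that library). Npc1, which with Npc2 exports cholesterol from lysosomes, had 1157, 1313 and 1166 in het and 1134, 1162 and 653 in KO. Only KO replicate 3 of Npc1 stood apart (log2 fold change -0.35, SE 0.27), and without it the value was -0.076. Npc2 had a value of -0.24 (SE 0.20).

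Levels can be set beside each other per kb of exon. In het gonocytes the members spanned a wide range, from Insig1 at 5937 ± 1766 normalized counts per kb to Tm7sf2 at 29.4 ± 4.90 (SD, n = 3). Below Insig1 came Hmgcs1 at 3456 ± 151, Fdft1 at 3375 ± 868 and Srebf2 at 2639 ± 773, of which neighbours lay within their spread. The next were Mvd at 1238 ± 328 and Dhcr7 at 1209 ± 322, which also did not differ beyond their spread. At the low end, Npc1 at 107 ± 7.72 and Ebp at 89.6 ± 20.6 stood above Tm7sf2. In KO, Insig1 stayed highest at 2777 ± 380 and Fdft1 at 2284 ± 197 was above Hmgcs1 at 1621 ± 238, whose het levels were alike. Exon length is the union of all annotated exons, so genes with retained introns in the annotation, such as Lss, are set too low on this scale.

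**Figure D2:**
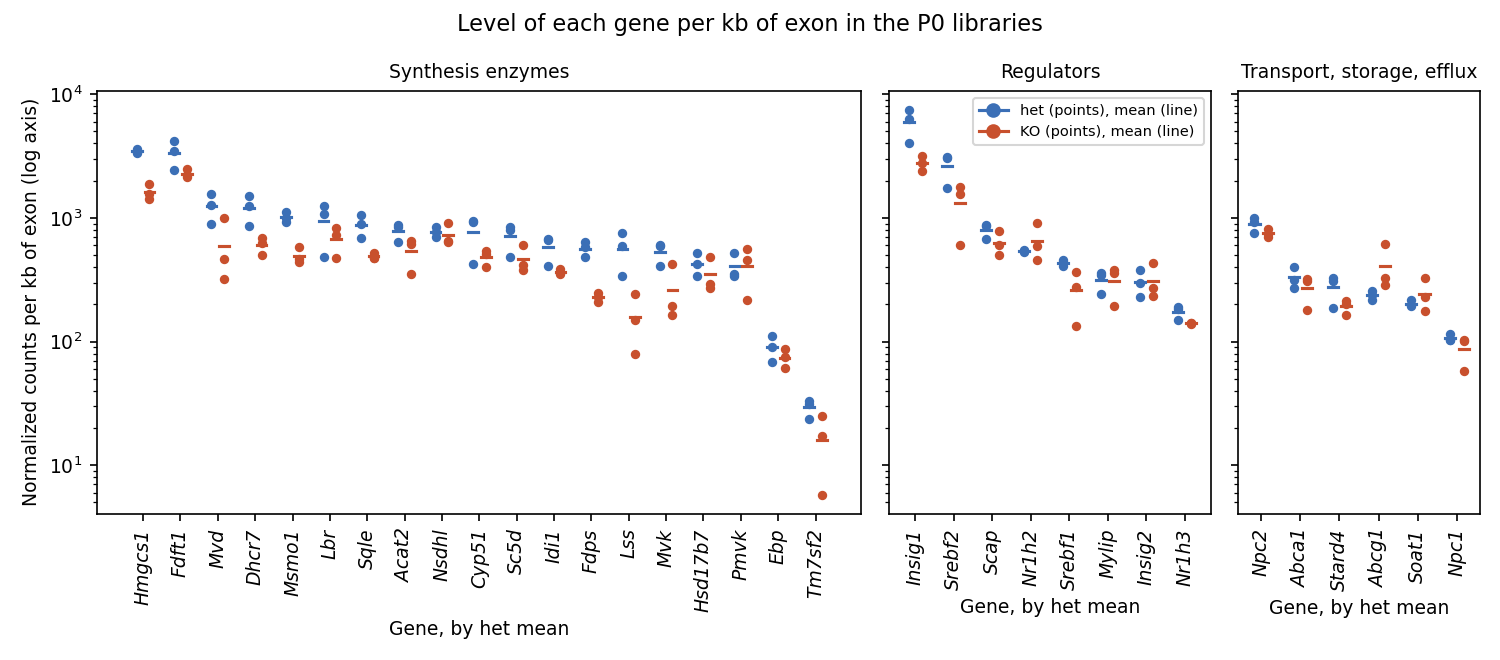
Normalized counts per kb of annotated exon (log axis) in each library, with the mean of each genotype as a line; genes are ordered by their het mean within each role. Insig1, at a het mean of 5937, stands highest, and Tm7sf2, at 29.4, lowest; KO points of Hmgcs1, Fdps, Lss and Msmo1 lie clear of the het points.

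Summed per library, the 19 enzymes held 94949, 84412 and 64244 normalized counts in het, against 47572, 46639 and 43616 in KO. These KO sums were nearly equal, and het replicate 3 lay between them and the other het libraries. The 8 regulators showed the same order, with 58677, 55126 and 36263 in het and 32678, 30150 and 23672 in KO. For the 6 transport, storage and efflux genes the groups overlapped, with 14953, 14996 and 14187 in het and 13942, 13340 and 15647 in KO.

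Markers of some other cell types were also lower on average in KO. Within a genotype, the Sertoli sums given below did not follow the order of the synthesis sums. The 7 Sertoli cell markers all had negative log2 fold changes, with a median of -0.69. Of them, 3 (Sox9, Amh and Clu) were lower in every KO library, as were 5.57% of all genes tested. Limma and edgeR called 0, and DESeq2 called 1 (Clu, lower), where it called 0.25% of all genes lower. The summed level of the Sertoli markers was 24359, 17536 and 37259 normalized counts in het and 12581, 14562 and 18099 in KO, and none was at 0 in any library. Medians were -1.99 over 5 Leydig, -0.11 over 6 blood and macrophage, 0.18 over 4 endothelial and myoid, -0.59 over 4 hepatocyte and 0.06 over 9 germ cell markers. Of the 5 Leydig cell markers, the steroid-making cells that use cholesterol, the sum was 776, 1079 and 24921 in het, against 510, 1075 and 911 in KO. The germ cell markers summed to 180977, 198666 and 127602 normalized counts in het, and 200516, 131357 and 160561 in KO. The high Leydig library, het replicate 3, was the het library with the lowest synthesis sum. That library also had the lowest germ cell sum and the highest Sertoli sum of all libraries. Leaving it out, the median log2 fold change of the 19 enzymes was -0.96, and 13 of the 19, as well as 20 of the 33 members, were lower in every KO library, where 12.5% of all genes tested were. The part of Sertoli cell RNA, or of the amount of germ cell RNA, in the differences was not tested. In bulk RNA, fewer cells of a type and less RNA per cell cannot be told apart.

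**Figure D3:**
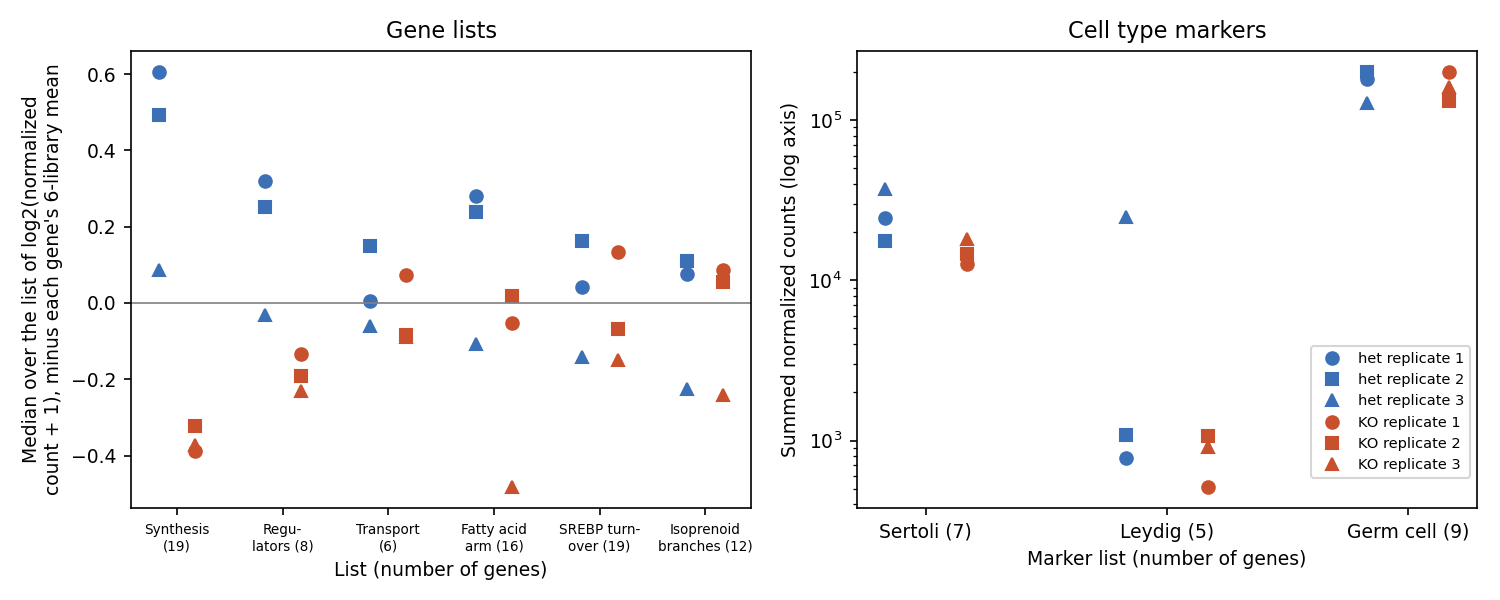
Left, for each library, the median over a gene list of log2(normalized count + 1) minus the mean of each gene over the 6 libraries; right, summed normalized counts of cell type markers (log axis). The KO libraries lie below all het libraries for the synthesis enzymes and the regulators, and het replicate 3 stands apart in Leydig markers at 24921.

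Other genes of lipid metabolism were counted from lists of known pathway genes. Of 16 genes of the fatty acid arm, on which SREBP1 mainly acts, 14 had a negative and 2 a positive log2 fold change, with a median of -0.38. Limma and edgeR called 0 of them, DESeq2 called 1 (Fads2, lower), and in limma 3 were lower and 1 higher at an unadjusted p under 0.05. Of all genes tested, DESeq2 called 0.25% lower, and 2.44% were lower and 4.42% higher at that unadjusted p. Fads2, a fatty acid desaturase, went from 3696 ± 248 normalized counts in het to 2074 ± 405 in KO (SD, n = 3; log2 fold change -0.85, SE 0.22). Acly, which makes the cytosolic acetyl-CoA that feeds both fatty acid and cholesterol synthesis, went the other way, from 37142 ± 12280 to 69185 ± 13830 (SD, n = 3; log2 fold change 0.94, SE 0.28), and its groups did not overlap.

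Of 19 genes of SREBP cleavage and of sterol-dependent protein turnover, 8 were negative and 11 positive, with a median of 0.01, and all 3 tools called 0. At an unadjusted limma p under 0.05 there was 1, Tmem97, a sterol-responsive membrane protein, at -0.50 (SE 0.21), that is 1 gene of 19 beside 2.44% of all genes tested lower at that p. The largest difference there was that of Syvn1, a ubiquitin ligase, at -0.71 (SE 0.43), with overlapping libraries. Of 12 genes that use isoprenoids for other ends, 8 were negative and 4 positive, with a median of -0.05, none was called by any of the 3 tools and 0 had an unadjusted limma p under 0.05. Dhdds, of dolichol synthesis, and Pggt1b, of protein prenylation, stood at 0.44 each (SE 0.24 and 0.27).

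Of 17 other sterol carriers, lipases and receptors, 14 were negative and 3 positive, with a median of -0.12. All 3 tools called 0, and 1 of the 17 was lower at an unadjusted limma p under 0.05, beside 2.44% of all genes tested. This was Scarb1, a lipoprotein receptor that takes up cholesteryl esters, at 3471 ± 163 normalized counts in het and 2044 ± 625 in KO (SD, n = 3; log2 fold change -0.81, SE 0.25). Cav1 stood at -0.51 (SE 0.54). Of 9 liver X receptor targets and oxysterol genes, 5 were negative and 4 positive, with a median of -0.06. Limma and edgeR called 0, and at an unadjusted limma p under 0.05 there were 1 lower and 1 higher, beside 2.44% and 4.42% of all genes tested. Cyp7b1, an oxysterol hydroxylase, was the 1 gene that DESeq2 called, as higher, where it called 1.54% of all genes higher. It stood at 119 ± 11.6 in het and 367 ± 192 in KO (SD, n = 3; log2 fold change 1.45, SE 0.44). Cyp46a1, a cholesterol hydroxylase, had every KO library below every het library (log2 fold change -0.62, SE 0.22).

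The TE table gave a further readout of the same libraries. It lists single TE copies with coordinates, here read as GRCm38, and 254 copies lay inside a member gene or within 10 kb of it, of which 75, at 21 genes, had a mean of at least 10 normalized counts. The het libraries held 2111534, 1974504 and 2511317 reads in TE copies, and the KO libraries 2868024, 3703419 and 3050231. TE values have their own size factors: 1 read counted as 1.05, 1.12 and 0.958 in het, against 0.954, 0.774 and 0.855 in KO. In the gene values it counted as 0.954, 0.966 and 0.975 in het, and 0.989, 1.03 and 0.980 in KO. Log2 fold changes of copies are thus lower here than on the gene size factors. The 75 had a median of -1.19, and the median over all tested copies is not given here. Limma called 15 of the 75 lower in KO, where 0.735% of all 49781 tested copies were lower, and 1 higher, where 15.6% of all copies were higher. Of the 15, 7 overlapped an exon of the gene, 4 lay in an intron and 4 in the flanks, and 14 belonged to synthesis enzymes (Hmgcs1, Fdps, Fdft1, Sqle, Lss, Cyp51, Sc5d and Dhcr7) and 1 to Insig1. By place relative to any annotated gene, 0.58% of exonic, 0.507% of intronic and 1.03% of intergenic copies were lower, and 3.71%, 7.59% and 28.1% were higher. Copies in exons count reads that the gene value can also hold, and copies of 1 gene share its transcripts, so they are no separate replicates of the gene result. The number lower was 6 without het replicate 1, 7 without het replicate 2, 9 without KO replicate 3 and 8 when the copies were scaled by the gene size factors.

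Upstream of Hmgcs1 lay 2 copies on the strand of the gene, 1438 and 867 bases from its annotated start. The farther one (471 bases, chromosome 13, 119688471 to 119688941) had 162, 149 and 104 normalized counts in het, against 42.9, 21.7 and 14.5 in KO. The nearer one (441 bases, 119689072 to 119689512) had 144, 126 and 70.9 in het and 40.1, 5.42 and 8.55 in KO. In both copies the groups did not overlap, with limma log2 fold changes of -2.46 (SE 0.47) and -3.01 (SE 0.66), against -1.10 for the gene. With the gene size factors, on which the gene value stands, both copies also passed, at -2.14 and -2.71.

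Within an intron of Cyp51, on the opposite strand, a copy of 2195 bases (chromosome 5, 4095800 to 4097994) had 33.7, 20.2 and 41.2 normalized counts in het, against 0.954, 0 and 1.71 in KO. The adjoining copy of 1234 bases (4094573 to 4095806) had 73.8, 41.5 and 97.8 in het, against 6.68, 15.5 and 7.70 in KO. These intronic copies separated the genotypes in full, while the Cyp51 gene value did not. In Lss, 3 exon copies were called lower, and the most abundant of them (329 bases, chromosome 10, 76551892 to 76552220) had 123, 66.2 and 90.1 in het, against 19.1, 20.9 and 13.7 in KO.

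The single copy called higher lay within an intron of Abca1, on the strand of the gene (7112 bases, chromosome 4, 53052110 to 53059221). It had 58.0, 66.2 and 145 normalized counts in het and 249, 338 and 178 in KO (limma log2 fold change 1.57, SE 0.44). The groups did not overlap, while the gene itself was not higher in KO. This call was lost without het replicate 1 or 2 and without KO replicate 1 or 2.

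**Figure D4:**
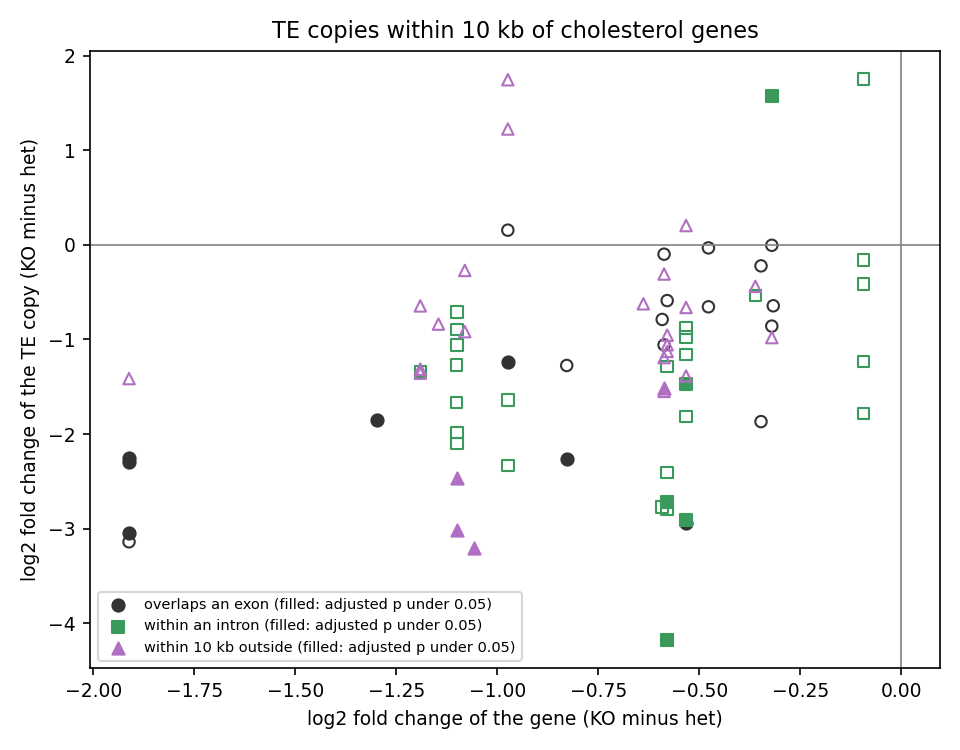
Each point is 1 of the 75 tested TE copies inside or within 10 kb of a member gene, plotted by the log2 fold change of the gene (x) and of the copy (y); shapes mark exon, intron and flank, and filled points passed an adjusted p under 0.05. Every gene with a tested copy has a negative value here; 15 filled points lie below 0, and the 1 filled point above 0 is the copy in the Abca1 intron at 1.57.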

How the data were processed

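The members and lists were chosen with earlier results of these data known. Libraries were made with a SMART-seq v4 cDNA kit and a TruSeq kit, per the labels' protocols. The submitters' processing notes name bcl2fastq 2.20, cutadapt 1.18, HISAT2 2.1.0, featureCounts 1.5.2 and DESeq2 1.26.0. Strand setting and treatment of reads that match several places are not given in the sources used here. Both deposited tables hold a normalized signal (the gene table's name says DESeq2), and 100% of values were whole multiples of 1 step per column (tolerance 0.01), that is, read counts over a size factor. Columns were matched to samples by genotype and replicate number. Features averaging 10 or more (26005 genes and 49781 TE copies) were fitted with limma 3.58.1 in R 4.3.3 (eBayes with trend, two-sided, Benjamini-Hochberg over all features, pseudocount 1, no covariates). edgeR 4.0.16 (quasi-likelihood, TMM) and DESeq2 1.42.0 were run on recovered reads as alternatives, with other pseudocounts, filters and normalizations, a replicate block and each library left out. The fits were tested on simulated data. Per-sample values were given for members with separated groups, for the 3 largest differences per role, for the 3 most and 3 least abundant members and for the SREBP regulators. The 2 largest differences were named in each other list.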

Additional observations from a re-analysis of the deposited data

How the results depend on the processing

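The number of members called lower by limma (2) was 1 with a pseudocount of 0.1, 0 without trend, 4 with quantile normalization and 7 with DESeq2, and ran from 0 to 2 over single left-out libraries. With a pseudocount of 10 it was 3. With the replicate block it was 1 in limma (Lss, and neither Hmgcs1 nor Fdps) and 0 in edgeR. DESeq2 called 0.25% of all genes lower. The shares of all genes under the other limma settings are not given, so these counts are read no further. Replicate numbers showed no clear pairing: the deviations of same-numbered het and KO libraries correlated at 0.138, -0.163 and -0.0438. Pairs with different numbers ran from -0.200 to 0.206. Such correlations cannot show whether same-numbered libraries were handled together. No member was called higher under any alternative run here. The median log2 fold change of the synthesis enzymes ran from -0.96 (without het replicate 3) to -0.53 over left-out libraries, that of the regulators from -0.42 to -0.27 and that of the transport, storage and efflux genes from -0.33 to -0.063. Synthesis enzymes with every KO library below every het library numbered 8 to 13 over left-out libraries, and members 12 to 20, where fewer libraries make separation easier. The share of all genes is given above only without het replicate 3, so these ranges are read no further. Of 495 member values under alternatives, 495 moved by less than the spread between replicates. With 3 libraries per genotype that is a wide limit, and it does not show that signs held. The log2 fold changes of Pmvk, Nsdhl, Insig2, Nr1h2, Mylip and Soat1 changed sign over left-out libraries, with Pmvk running from -0.34 to 0.35. Tm7sf2 kept its sign but ran from -1.51 to -0.48.

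TE copies near members called lower (15) ran from 6 to 14 over left-out libraries and were 8 with the gene size factors, an alternative chosen after seeing the data. Those called higher (1) were 2 with no filter, 0 with the replicate block, 3 with the gene size factors and 0 to 2 over left-out libraries. The shares of all copies under these alternatives are not given.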
